A study of Mus musculus with 12 samples.

Results

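Dhx9, Rrbp1, Fam98b, Fbxl19 and Ube2s are the 5 genes with the most strongly enriched N6-methyladenosine (m6A) peaks of mouse testis that recur in both genotypes examined. They were taken by the highest fold in the wild-type (WT) list among peaks that overlap a peak of the Alkbh5-/- (KO) list by at least 1 base on the same strand. Genes known only by clone or prediction names had been left out. The 5 genes stand among 17795 genes with a peak in either list, and all 5 have peaks in both lists. Since the WT fold chose them, their WT folds are a description, and nothing is tested on them.

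The series compared whole testes of WT males with those of Alkbh5-/- males, all at postnatal day 18, by methylated RNA immunoprecipitation sequencing (MeRIP-seq). Each genotype had 3 pulled-down (IP) libraries and 3 input libraries, 12 libraries in 4 groups. The labels do not say how the null allele was made, or whether a replicate is a single mouse. The data used here are 1 peak list per genotype, in which the authors give each peak a fold of IP over input, and no values per library were used.

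In messenger RNA, m6A is placed by a methyltransferase complex in the nucleus, is read by proteins of the YTH family and others, and is removed by demethylases, of which Alkbh5 is one. It gathers around stop codons, in the 3′ untranslated region (3′ UTR) and in long internal exons, and it bears on splicing, export, translation and decay of the transcript. Alkbh5 is known to be needed for normal male fertility in mice. The 5 genes share no single pathway. Dhx9 unwinds RNA and RNA-DNA hybrids in the nucleus. Rrbp1 is a membrane protein of the rough endoplasmic reticulum that holds ribosomes and messenger RNA. Fam98b belongs to the complex that joins the pieces of transfer RNA after splicing. Fbxl19 is an F-box protein that binds unmethylated CpG islands, and Ube2s is the ubiquitin-conjugating enzyme that extends chains on targets of the anaphase-promoting complex.

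The WT list held 33078 peaks with a median fold of 6.02, and the KO list 32277 peaks with a median fold of 6.32. Folds of 100 or more were rare, at 41 WT peaks (0.124%) and 32 KO peaks (0.0991%). Alkbh5 itself had 3 WT peaks and 0 KO peaks, which goes with the labels. Of 5 germ cell markers 4 carried a peak in each list. Of 4 Sertoli cell markers 3 carried a WT and 2 a KO peak, and of 3 Leydig cell markers 2 and 1, since Amh and Insl3 had a WT peak alone, and their part in the results was not tested. Ddx4, Rhox5 and Cyp17a1 carried no peak. A peak is not a measure of expression. In whole testis, fewer cells of a type and less RNA per cell cannot be told apart.

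The 5 genes carried 12 peaks in each list. Of the 12 WT peaks 10 overlapped a KO peak (83.3%), where 78.4% of all WT peaks did. Of the 12 KO peaks 11 overlapped a WT peak (91.7%), against 80.7% of all KO peaks. The rule fixed 1 shared peak per gene, so these shares are given as counts only. Among the WT peaks 5 had a fold of 579 or more and the other 7 a fold of 11.4 or less, with nothing between. In the 3′ UTR lay 7 of the 12 WT peaks, where 48.9% of all WT peaks lay. Among the KO peaks 6 had a fold of 130 or more and 6 a fold of 12 or less.

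The strongest WT peak had a fold of 1350 in Dhx9, 978 in Rrbp1, 801 in Fam98b, 633 in Fbxl19 and 579 in Ube2s. The overlapping KO peak of highest fold had a fold of 1090 in Dhx9, 569 in Rrbp1, 443 in Fam98b, 142 in Fbxl19 and 226 in Ube2s. Dhx9 therefore led both lists, and Fbxl19 and Ube2s changed places. All 5 genes were lower in the KO list, with KO over WT ratios from 0.224 to 0.807 and a median of 0.553. With 1 list per genotype there is no replicate error, so whether any of these differences exceeds the spread between mice is unknown. The reads behind a fold are not given either, so its counting error is unknown.

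**Figure D1:**
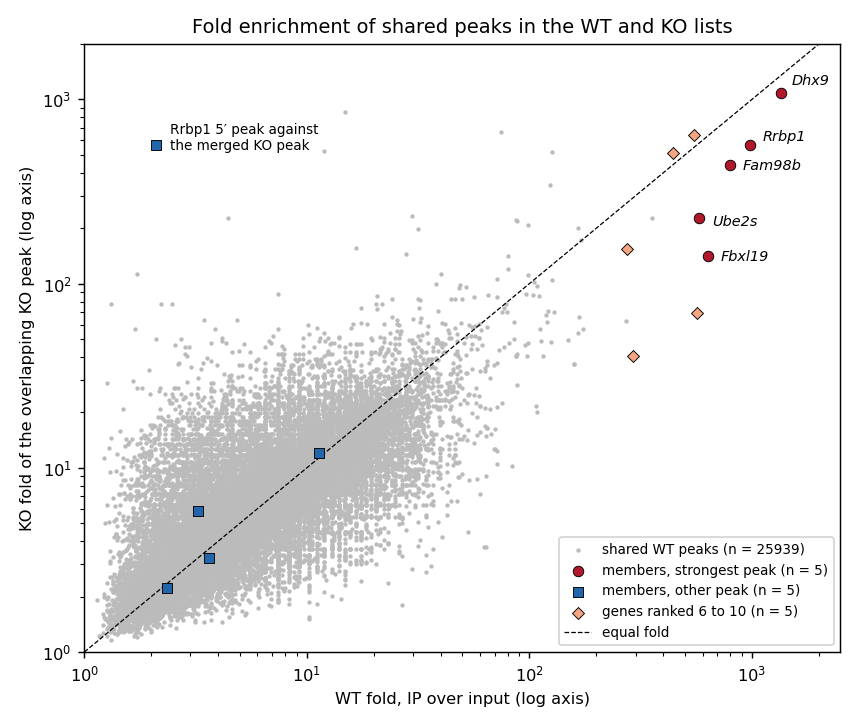
Each grey point is 1 of 25939 WT peaks that overlap a KO peak, with its WT fold (horizontal, log axis) and the highest fold among its KO partners (vertical, log axis). The strongest peaks of the 5 genes (red) lie below the line of equal fold, the genes ranked 6 to 10 (diamonds) on both sides of it, and 4 of the 5 other shared peaks of the 5 genes (blue) near it at folds of 12 or less.

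A lower KO fold was also the common case among other peaks of high WT fold, at 26 of the 32 shared WT peaks of fold 100 or more outside the members (81.2%, median KO over WT ratio 0.533). Over all 25939 shared WT peaks 48.0% had a lower KO fold, and the median KO over WT ratio was 1.02. With the members the share at fold 100 or more was 83.8% of 37, and the median ratio was 0.547. Taken from the KO list, peaks of high fold were in turn lower in WT. Of 31 shared KO peaks of fold 100 or more 67.7% had a lower WT fold, against 44.3% of all shared KO peaks, and their median WT over KO ratio was 0.673. The 5 genes were chosen by their WT fold, so nothing is read from their lower KO folds.

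Ranking genes by the KO fold instead gave partly other names. Dhx9 stayed at rank 1, Rrbp1 moved from 2 to 4, Fam98b from 3 to 8, Ube2s from 5 to 10 and Fbxl19 from 4 to 18, among 11292 genes. Ninl, a centrosomal protein related to ninein, took rank 2 with a KO fold of 854 and a WT fold of 14.8. Zxda, a zinc finger gene, had 525 in KO and 12 in WT. Inha, the alpha subunit of inhibin made by Sertoli cells, had 516 in KO and 126 in WT. A high fold in 1 list was thus not always matched in the other, while Dhx9, Rrbp1 and Fam98b were at 443 or more in both. Outside the members, Syncrip (549 in WT, 640 in KO) and Capns1 (443 and 515) were so too.

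The step from members to non-members was small. Ube2s, the last gene inside, had a WT fold of 579, and Wdr66, a protein of the sperm flagellum, just outside, had 564. Wdr66 was followed by Syncrip, an RNA-binding protein (549), Capns1, the small subunit of calpains (443), Mgat5, which branches N-glycans (291), and Trim25, a ubiquitin ligase of antiviral signalling (276). Their KO folds were 69.5, 640, 515, 40.6 and 154 in the same order. Syncrip and Capns1 were thus higher in the KO list, unlike any of the 5 members, and their strongest peaks, like that of Wdr66, lay in the 5′ UTR.

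**Figure D2:**
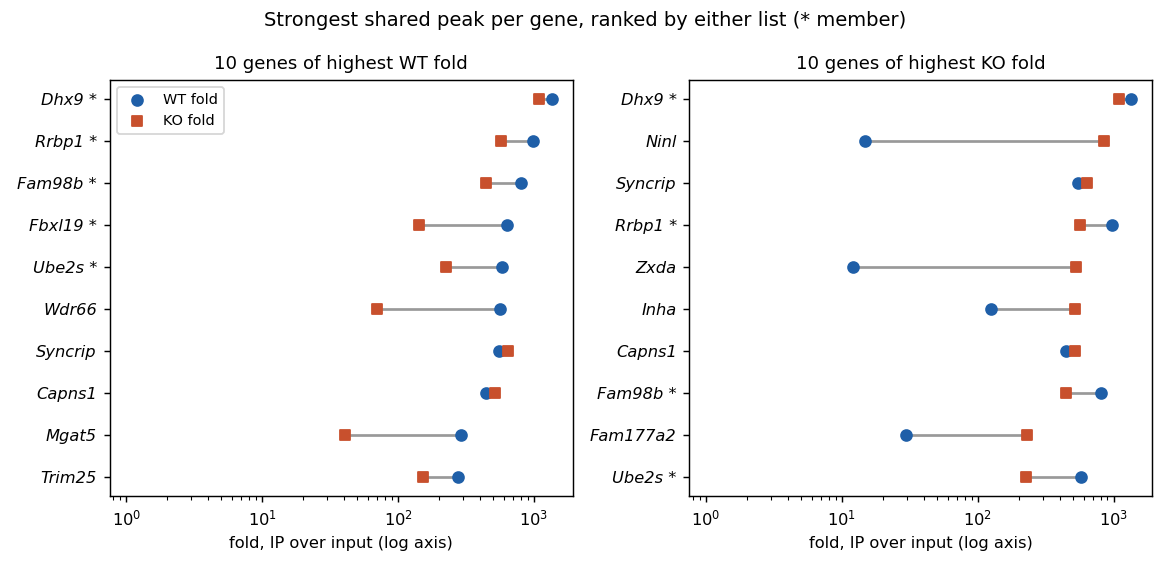
The fold of the strongest shared peak per gene is shown for the 10 genes of highest WT fold (left) and of highest KO fold (right), with circles for WT, squares for KO and stars beside the 5 members. Genes ranked by WT lean to lower KO values and those ranked by KO to lower WT values, as for Wdr66 (564 and 69.5) and Ninl (14.8 and 854).

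Among genes outside the 5, Syncrip was the most like 3 of the members in both folds together. Likeness was taken as the distance in log2 WT fold and log2 KO fold of the strongest shared peak, over these 2 values alone. Syncrip was nearest to Fam98b (distance 0.76), Rrbp1 (0.85) and Dhx9 (1.51). Wdr66 was nearest to Fbxl19 (1.04) and Trim25 to Ube2s (1.20).

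Position separated Rrbp1 from the other members. The strongest WT peak lay in the 3′ UTR by the authors' annotation in 4 of the 5 genes, and in a coding exon in Rrbp1. Over all 13963 genes with a shared peak, 57.8% had their strongest shared WT peak in the 3′ UTR. Unlike the ranking of the members, that background keeps genes with clone or prediction names. The name of strongest 3′ peaks thus holds for Dhx9, Fam98b, Fbxl19 and Ube2s, and the Rrbp1 data go against it. All coordinates below are in GRCm38, counted from 1.

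Dhx9 (ENSMUSG00000042699, chromosome 1, minus strand) had 1 peak in each list and no other. Both lists placed it at 153455758 to 153457612, a span of 1855 bases that reaches the annotated 3′ end of the gene. The preceding 30048 bases of the gene span, introns included, carried no peak in either list. The fold was 1350 in WT and 1090 in KO, a KO over WT ratio of 0.807. This was the mildest difference of the 5 genes, and 26.8% of all shared WT peaks had a lower ratio. Among shared WT peaks of fold 100 or more the median ratio was 0.547. The log10 FDR was listed as minus infinity in both lists, as for 1201 WT and 1242 KO peaks in all.

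Fam98b (ENSMUSG00000027349, chromosome 2, plus strand) likewise had a strong 3′ peak with the same ends in both lists. It ran from 117263872 to 117271180, annotated to the 3′ UTR, and ended 360 bases before the end of the gene. Its span of 7309 bases is counted along the genome and may include introns, since the lists give no exon blocks. The fold was 801 in WT and 443 in KO, a ratio of 0.553. Among all shared WT peaks 9.11% had a KO partner with the same first and last base, and of the strongest member peaks 2 of 5 did, those of Dhx9 and Fam98b.

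A weak 5′ UTR peak was the only other peak of Fam98b. It began at the first base of the gene, 117249739, and ended at 117255539 in WT (fold 2.35, log10 FDR -6.69) and at 117255569 in KO (fold 2.22, log10 FDR -4.69). The KO over WT ratio was 0.945.

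Of the transcript starts listed with RefSeq start sequences for the 5 genes, only that of Fam98b had its first 50 transcribed bases under a peak. It did so in both lists. That start is 117249739, while the RefSeq span of Fam98b begins before the peak, at 117249713. The starts used for Dhx9, Rrbp1 and Fbxl19 also lie inside their RefSeq spans. The 5′ UTR peaks of Fbxl19 lie upstream of its starts used here (127746278 and 127746775). They lie inside the RefSeq span of the gene, which begins at 127743887. The stretch around GGAC is shown because GGAC is the core of the m6A consensus, which asks for A, C or T as the following base. The windows are 30 bases of RefSeq sequence (GRCm38.p6) in the direction of the transcript, with GGAC in capitals. The 2 other windows come from members with the same letters near a start but with no peak there.
Fam98b, chr2:117249742-117249771, plus strand: gacgaacagctttGGACcaagcgaccatga
Ube2s, chr7:4812295-4812324, minus strand: agcgtttcgtagcGGACgtcggaattagtg
Fbxl19, chr7:127746788-127746817, plus strand: agactcatacccgGGACtgagtggggcccg
GGAC began 17 bases into the transcript in Fam98b, 30 in Ube2s and 27 at the start of Fbxl19 shown. The base after it is C in Fam98b and T in Fbxl19, which the consensus allows, and G in Ube2s, which it does not. Dhx9, Rrbp1 and the other listed start of Fbxl19 had no GGAC in these 50 bases. Of 32851 RefSeq starts 18.9% had GGAC there, 15.4% had it followed by A, C or T, and 17.4% had the reverse complement GTCC. These letters are common and mark no methylated base.

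**Figure D3:**
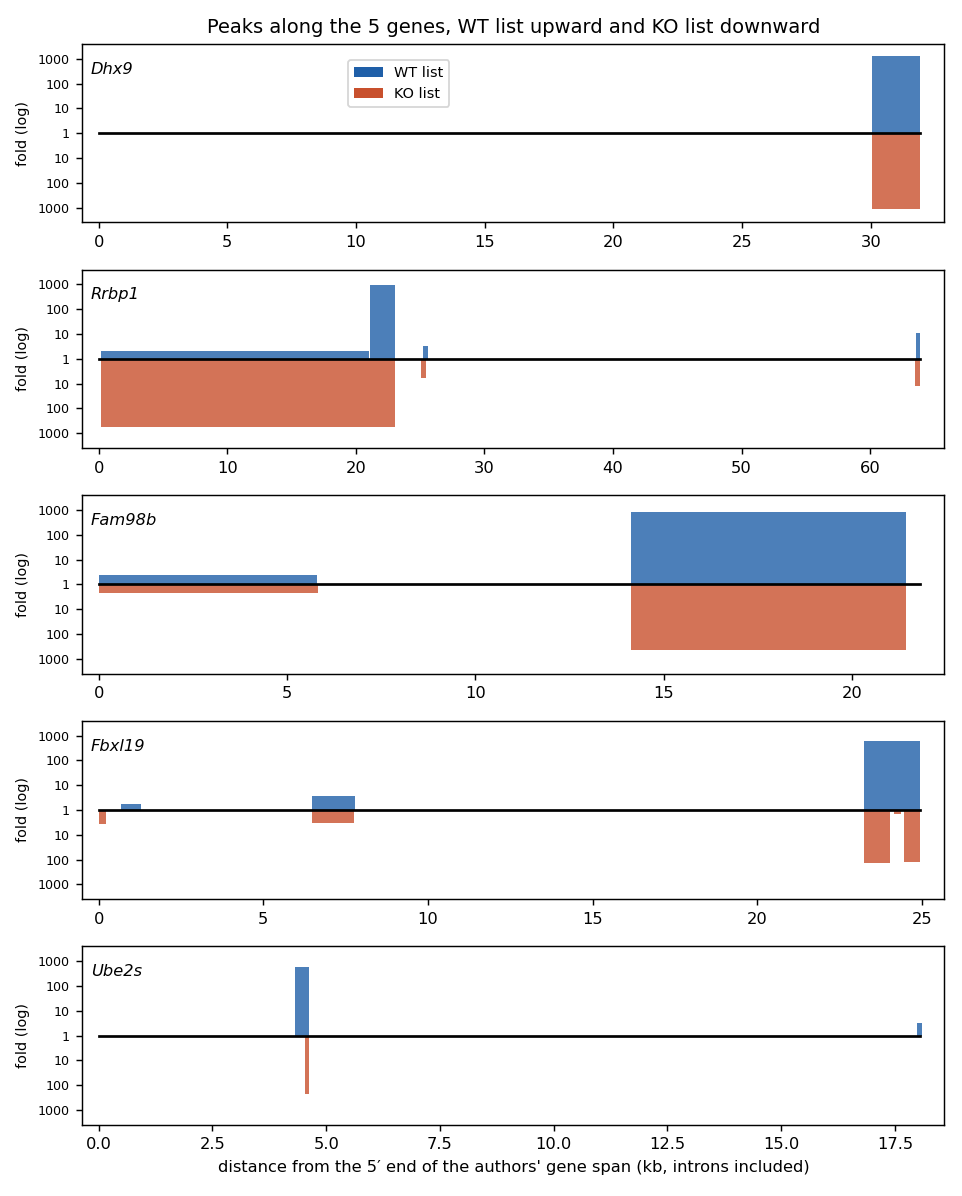
The peaks of each gene are drawn along the authors' gene span from its 5′ end (kilobases, introns included), with the WT fold upward and the KO fold downward on a log scale and very short peaks widened to be visible. Dhx9 has its only peak at the 3′ end, Rrbp1 has its strongest peak in the 5′ part of the gene span, and Ube2s has its strongest peak well inside an annotated span that runs on to 17.5 kb and beyond.

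Rrbp1 (ENSMUSG00000027422, chromosome 2, minus strand) was drawn differently in the 2 lists. In WT the peak of fold 978 covered 1950 bases at 143988222 to 143990171, in a coding exon. A separate WT peak of fold 2.10, annotated to the 5′ UTR, followed after a gap of 59 bases and spanned 20883 bases at 143990231 to 144011113. In KO a single peak of fold 569, annotated to the 5′ UTR, covered both regions at 143988192 to 144011083, a span of 22892 bases. The ratio of 0.582 therefore compares a short peak with a long merged one. These spans are counted along the genome, introns included, so they do not measure the length of RNA enriched. The KO peak took in all 1950 bases of the strong WT peak, and its own fold is listed for the whole span.

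The 3′ end of Rrbp1 carried a moderate peak of similar fold in both lists. It lay at 143947395 to 143947725 in WT, with a fold of 11.4 (log10 FDR -304), and at 143947395 to 143947755 in KO, with a fold of 12 (log10 FDR -308). The ratio was 1.05, and 52.7% of all shared WT peaks had a lower one. A further weak pair was annotated to the 3′ UTR of another transcript, with a fold of 3.24 at 143985855 to 143986034 in WT and 5.86 at 143985885 to 143986154 in KO. These had log10 FDR values of -2.02 and -2.59.

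Fbxl19 (ENSMUSG00000030811, chromosome 7, plus strand) had 1 strong 3′ UTR peak in WT and 3 peaks over the same stretch in KO. The WT peak ran from 127767780 to 127769483, the end of the gene, over 1704 bases, with a fold of 633. The KO peaks lay at 127767780 to 127768587 (fold 142), at 127768706 to 127768915 (fold 1.51) and at 127769005 to 127769483 (fold 130). Gaps of 118 and 89 bases separated them, and together they covered 87.9% of the WT peak. Among shared WT peaks 12.4% overlapped more than 1 KO peak. The ratio of the highest KO piece to the WT peak was 0.224, the lowest of the 5 genes, between peaks of unequal extent. Of all shared WT peaks 0.571% had a lower ratio, but most of those were not chosen by a high WT fold. Among shared WT peaks of fold 100 or more the median ratio was 0.547. Wdr66 (0.123) and Mgat5 (0.14), of high WT fold outside the members, had lower ratios than Fbxl19.

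The 5′ and coding parts of Fbxl19 were weakly enriched in both lists. A coding peak at 127751009 to 127752318 had a fold of 3.64 in WT, and its KO partner, ending at 127752288, had 3.23. Their ratio was 0.887. In the 5′ UTR the lists had different peaks that did not overlap. The WT-only peak lay at 127745228 to 127745814 (fold 1.70, log10 FDR -1.39) and the KO-only peak at 127744543 to 127744752 (fold 3.79, log10 FDR -4.20). WT-only peaks make up 21.6% of the WT list and KO-only peaks 19.3% of the KO list, and this KO-only peak was the only 1 in the 5 genes.

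Ube2s (ENSMUSG00000060860, chromosome 7, minus strand) had its strong peak at the end of the gene as RefSeq draws it. The WT peak covered 300 bases at 4807976 to 4808275, with a fold of 579 and a log10 FDR of -286. The KO peak covered 61 bases at 4808006 to 4808066, inside the WT peak, with a fold of 226 and a log10 FDR of -114. The KO peak thus covered 20.3% of the WT span, and the ratio was 0.39. Both peaks ran past the RefSeq 3′ end at 4808014, by 38 bases in WT and 8 in KO. The authors' gene span goes on to 4794546 through another transcript.

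At that far end Ube2s had a WT-only peak of 61 bases at 4794546 to 4794606, with a fold of 3.09. Its log10 FDR of -0.71 was the weakest among the peaks of the 5 genes and missed the limit of -5 used further below. The peak shared 45 bases with a WT peak of Rpl28, a ribosomal protein gene on the opposite strand. That Rpl28 peak lay at 4794562 to 4794621 (fold 4.17, log10 FDR -6.94). Rpl28 had no KO peak, so both peaks were missing from the KO list together. Whether the peak caller used the strand of the reads is not stated in the sources used here, so reads of the 2 genes cannot be told apart.

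**Figure D4:**
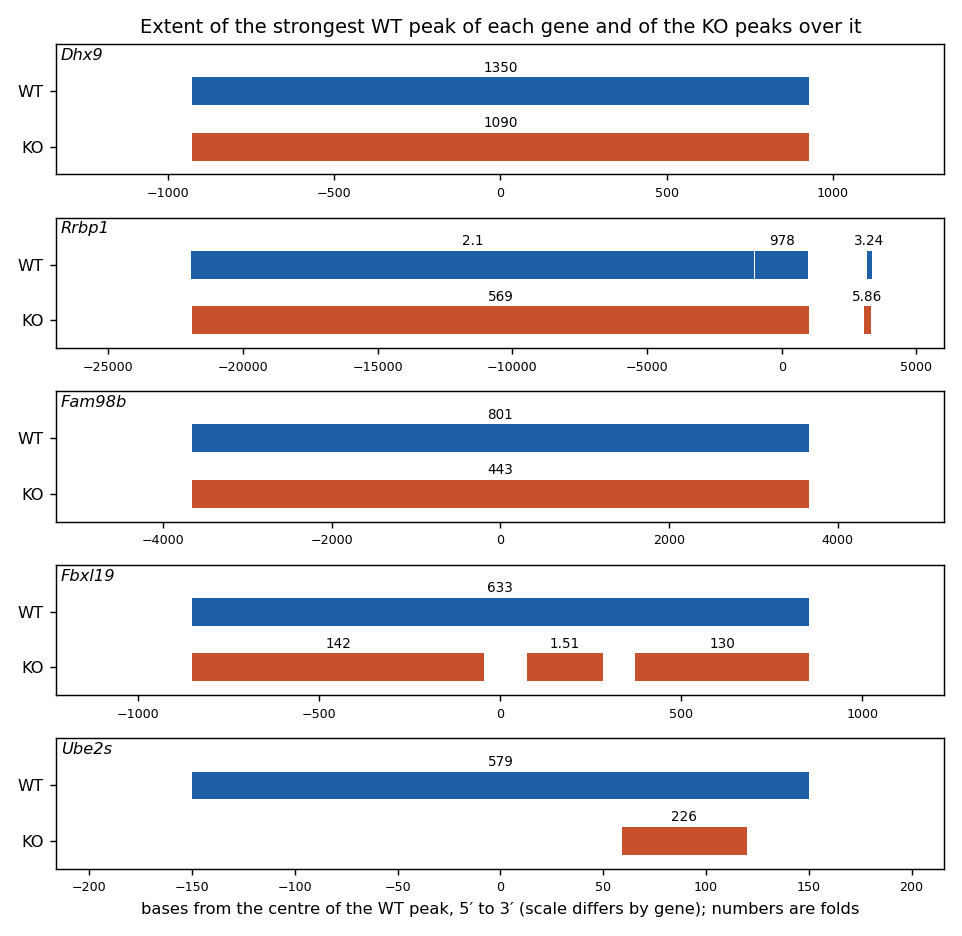
For each gene the strongest WT peak (blue) and the KO peaks over the same stretch (red) are drawn by their distance in bases from the centre of the WT peak, 5′ to 3′, with neighbouring peaks and the fold of each above it. The extents match in Dhx9 and Fam98b, while Rrbp1 has 1 merged KO peak of fold 569, Fbxl19 has 3 KO pieces (142, 1.51 and 130) and Ube2s a KO peak of 61 bases.

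Only Dhx9 and Fam98b had strong peaks of the same extent in both genotypes. When at least 50% of both peaks had to overlap, 2 of the 5 strongest peaks (40.0%) kept a KO partner and those of Rrbp1, Fbxl19 and Ube2s did not. By the same measure 71.4% of all shared WT peaks and 81.1% of those with a fold of 100 or more, the members included, kept a partner. The fold ratios of Dhx9 (0.807) and Fam98b (0.553) are therefore the 2 that compare peaks of the same extent. Extent here means the span along the genome, any introns included. In Rrbp1 the KO peak missed the limit although it holds all 1950 bases of the strong WT peak. In Fbxl19 the KO peak of highest fold holds 808 of the 1704 bases, and the KO peaks together cover 87.9%. The 4 weaker pairs with a partner of their own had ratios of 0.887 (Fbxl19), 0.945 (Fam98b), 1.05 and 1.81 (Rrbp1).

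Relatives and partners of the 5 proteins were read for their own peaks, since the rule itself places every other gene below the members in WT fold. In 5 lists of 78 genes 66 had a peak and 62 of these a shared one (93.9%), against 78.5% of all genes with a peak, a background that also holds genes with clone or prediction names. Their strongest shared WT peaks had a median fold of 7.27, against 8.72 over all genes with a shared peak, and the highest was 60.6. KO folds were lower in 36 of the 62 (58.1%), against 56.9% of all such genes. The strongest shared WT peak lay in the 3′ UTR in 42 of the 62 (67.7%), against 57.8% of all such genes. By list this was 9 of 16 for Dhx9, 8 of 10 for Rrbp1, 9 of 10 for Fam98b, 4 of 11 for Fbxl19 and 12 of 15 for Ube2s. A WT-only peak occurred in 24 of the 66 genes (36.4%, background 32.0%) and a KO-only peak in 15 (22.7%, background 27.9%). Below, the stricter FDR means a log10 FDR of -5 or below in both lists, and a peak counts as WT-only or KO-only there when no partner passes it. At that limit, genes with such a peak carried WT-only peaks in 16.6%, KO-only peaks in 16.0% and shared peaks in 82.6% of cases. In the 5 lists 6 genes had a WT-only, 9 a KO-only and 55 a shared peak there, among the 66 with a peak at any FDR. The shares just given are over the 11681 genes with a peak passing the limit, so these counts cannot be set against them. The genotype-only peaks named below are thus given as a description.

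Of the 17 helicases related to Dhx9 all had a peak and 16 a shared one, with a median WT fold of 8.03. The highest were in the 3′ UTR of Dhx33 (25.6 in WT, 23.7 in KO), of the splicing helicase Dhx8 (13.8 and 12.9) and of the splicing helicase Dhx38 (11.7 and 10.5). At the stricter FDR Dhx15, another splicing helicase, had a KO-only peak of fold 1.67, which overlapped no WT peak at all. Peaks of Dhx57 (WT fold 3.59) and of Dhx29, which aids translation initiation (KO fold 7.89), lacked only a partner that passes the limit, and each overlapped a weaker peak of the other list.

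Among 17 genes of the translocon and the rough endoplasmic reticulum, chosen as partners of Rrbp1, 11 had a peak and 10 a shared one, with a median WT fold of 5.51. Ckap4, which spaces the sheets of the reticulum, was highest (18.5 in WT, 16.5 in KO), followed by Sec62, a translocation factor (11 and 9.29), and Srp54a, a subunit of the signal recognition particle (10.2 and 6.32). KO folds were lower in 9 of the 10, against 56.9% of all genes with a shared peak. In the other lists they were lower in 9 of 16 (Dhx9), 6 of 10 (Fam98b), 6 of 11 (Fbxl19) and 6 of 15 (Ube2s). WT peaks of Sec62 (1.83) and Lrrc59 (3.18) passed the stricter FDR while the KO peaks that they overlap did not. The subunits Sec61b and Sec61g carried no peak.

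The list for Fam98b, transfer RNA ligation and splicing, held the gene of highest fold in the 5 lists. Fam98a, its paralog in the same complex, had a 3′ UTR peak of fold 60.6 in WT and 55.7 in KO. Tsen54, a subunit of the transfer RNA splicing endonuclease, came next (19.4 and 29.8). The ligase Rtcb itself had 4.32 and 5.83, and the helicase Ddx1 10.2 and 7.22. Zbtb8os, or archease, which activates the ligase, had a KO peak of fold 3.03 that passed the stricter FDR, over a WT peak that did not. Of the 12 genes 11 had a peak and 10 a shared one. The strongest shared peak lay in the 3′ UTR in 9 of the 10 (90.0%), against 57.8% of all genes with a shared peak.

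The list for Fbxl19, CpG island binders and partners in ubiquitin ligases, had 13 genes, of which 11 had a shared peak with a median WT fold of 12.6. The strongest shared peak lay in the 3′ UTR in 4 of the 11 (36.4%), against 57.8% of all genes with a shared peak, clone or prediction names included. The 3 highest were Tet1, which oxidises methylated cytosine in DNA (19.4 in WT, 16.2 in KO), Kdm2a, a histone demethylase that like Fbxl19 joins a CXXC domain to an F-box (18.2 and 20), and Tet3 (17.5 and 20.5). At the stricter FDR Kdm2a had a WT-only peak of fold 10.4, and Kdm2b (1.97) and Kmt2b (1.72) had KO-only peaks, none of which overlapped any peak of the other list. Another WT peak of Kdm2a (3.84) and a KO peak of Kmt2a (3.07) overlapped peaks that missed the limit. Rnf20, a ubiquitin ligase of histone H2B, had peaks of both kinds (2.63 in WT, 2.03 in KO). Dnmt1 and Skp1a carried no peak.

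Of 19 genes of the anaphase-promoting complex and its regulators, the list for Ube2s, 16 had a peak and 15 a shared one. The strongest shared peak lay in the 3′ UTR in 12 of the 15 (80.0%), against 57.8% of all genes with a shared peak. The median WT fold was 6.94. The highest were the subunits Cdc26 (27.8 in WT, 25.7 in KO), Anapc7 (12.4 and 11.9) and Cdc27 (11 and 13.9). At the stricter FDR Cdc26 had a WT-only peak (9.57), and Anapc13 (1.76) and Anapc15 (1.96) had KO-only peaks. Ube2c, the enzyme that starts the chains Ube2s extends, had a WT-only peak and no shared peak, and the activator Cdc20 had none at all.

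**Figure D5:**
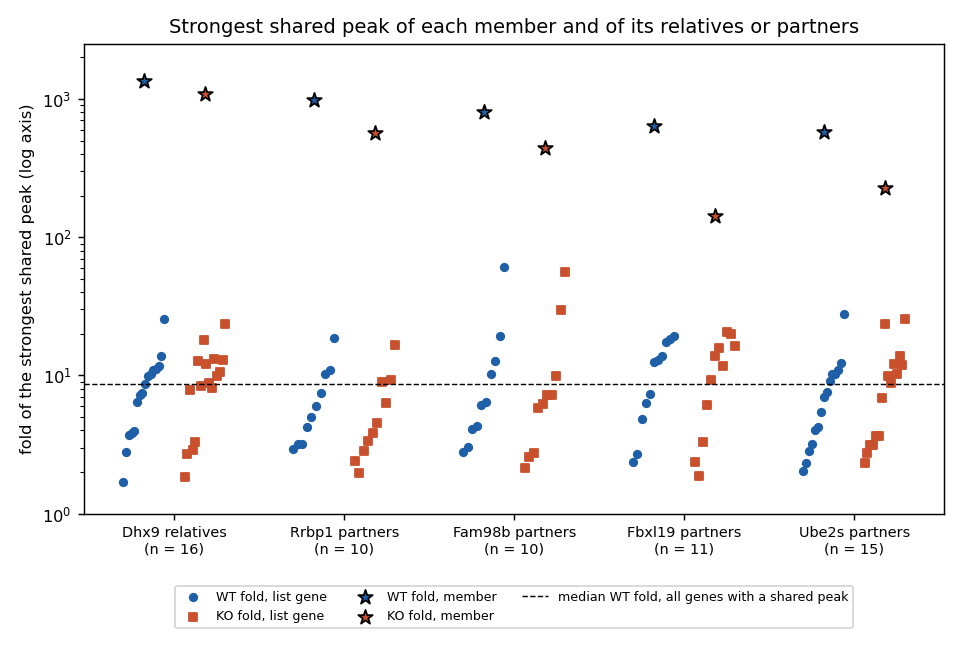
The strongest shared peak of each member (stars) is set beside those of its relatives or partners (points for WT, squares for KO) on a log axis of fold, with the median WT fold of all genes with a shared peak, 8.72, as a dashed line. The WT stars lie on top by the choice of members, and the highest list gene is Fam98a, at 60.6 in WT and 55.7 in KO.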

How the data were processed

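The submitters' processing notes name GRCm38 as the build and StringTie, HOMER, HISAT2, FastQC and fastp as tools, with neither role nor version. The peak caller is not stated in the sources used here, nor whether replicates were pooled. The deposited lists give, per the file headers, a fold (a linear ratio of IP over input) and the log10 p-value and FDR of each peak, handled as a score because the smallest are minus infinity. Depth per library is unknown, no replicate error could be computed, and the planned test on counts per library was not run. Spans are the end minus the start, which is counted from 0 in the deposited lists.

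Peaks were matched with bedtools 2.31.1, at least 1 base on the same strand, and a WT peak was compared with its KO partner of highest fold. The step was tested on simulated data. RefSeq symbols (GRCm38.p6) matched older names, and all 5 members had a RefSeq start sequence. The members and lists were chosen with earlier results of these data known. Genes named are Alkbh5, the members, the 5 genes ranked next, the gene nearest to each member, and per list the 3 of highest WT fold plus those with a genotype-only peak at log10 FDR -5 or below. A gene that this rule takes is not reported here. Chosen after their values were seen were Ninl, Zxda, Inha, Amh, Insl3, Rpl28, Rtcb, Ddx1, Ube2c and the genes without a peak.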

Additional observations from a re-analysis of the deposited data

How the results depend on the processing

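No paired analysis was possible because the lists hold no values per library. Leaving out replicates was not run for the same reason. When partners had to cover 50% of each other, the 5 genes had 7 shared WT peaks, 5 WT-only, 7 shared KO and 5 KO-only peaks, in place of 10, 2, 11 and 1. With both lists at log10 FDR -5 or below, 1 WT-only peak (the 5′ UTR peak of Fam98b, whose KO partner misses this limit) and 0 KO-only peaks were counted. Partners within 200 bases or on either strand left these 4 counts as they were. Dividing each fold by the median of the shared peaks of its list (6.48 in WT, 6.32 in KO) gave KO over WT ratios of 0.828 for Dhx9, 0.597 for Rrbp1, 0.567 for Fam98b, 0.23 for Fbxl19 and 0.4 for Ube2s. Taking the KO partner with the most shared bases changed none of the 5 ratios. Clone-type names changed none of the 5 ranks. Ranks by KO fold were 1, 4, 8, 18 and 10 in the same order of genes. The mirror of the share of 83.8%, added after seeing the data, gave 67.7%. Counts of partner genes with a shared peak stayed within 1.5 times at the stricter FDR, with 55 in place of 62. The unknown depth and the single list per genotype limit every comparison above.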
